A study of Mus musculus with 40 samples.

Results

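A set of 6 genes of hepatic glucose output and insulin response was followed across 40 mouse livers. G6pc, Pck1 and Pygl encode enzymes of gluconeogenesis or glycogen breakdown. Irs2 encodes an insulin receptor substrate, and Igfbp1 and Igfbp2 encode secreted binding proteins of insulin-like growth factors. Members were taken by gene symbol from the annotation of the array's probes, which gave 7 probes of 6 genes among 23574 probes and 10842 named genes. Irs2 had 2 probes, both assigned to the same transcript. The probe with the larger SD over the 40 arrays stands for Irs2 and the other is called its second probe.

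The livers came from C57BL/6J mice on a chow diet with 4% fat, killed at 14 weeks of age after a fast of 12 h. There were 8 groups of 5 animals: intact females, intact males, and ovariectomized females and castrated males that carried a placebo, an estradiol or a dihydrotestosterone (DHT) pellet. Gonads were removed at 8 weeks and pellets were placed at 12 weeks. The labels give no operation or pellet for intact mice, so gonad loss, surgery and pellet cannot be told apart against them. Estradiol pellets of 0.5 mg give plasma levels of 300 pg/ml and DHT pellets of 5 mg give 1 to 2 ng/ml, with release over 21 days. Per the labels, plasma yields were those the pellets give, so no animal's own hormone level is known here. All 40 mice shared the strain, the diet and the fast, and no fed animal was measured. Each array compared 1 liver (Cy5) with a pool of RNA from 40 livers (Cy3), so that each value is a log2 ratio to that pool, a fold between groups is 2 to the power of a difference, and levels cannot be compared between genes.

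In the fasted liver glucose is made by gluconeogenesis and released from glycogen. Glucagon, acting through cyclic AMP, and glucocorticoids raise the transcription of the gluconeogenic genes, and insulin lowers it by driving forkhead factors of the FOXO family out of the nucleus. The same FOXO switch acts on Irs2 and Igfbp1, which rise with fasting and fall within hours of a meal, so that the group is widely used as a readout of hepatic insulin action. Sex steroids act on the liver directly and through the pituitary and the growth hormone rhythm.

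After gonadectomy, as the mean of both sexes, G6pc, Irs2 and Igfbp1 were lower, while Pck1 and the second probe of Irs2 did not pass. The sequences upstream of these 4 members are shown, picked by that result. They are the 250 bases before the RefSeq transcription start in GRCm38.p6, read 5′ to 3′ on the gene's strand, and capitals mark letters that match 1 of 6 short motifs searched on both strands: CAAAACA (the core of the insulin response element), GTAAACA (forkhead), TTACGTCA and TGACGTCA (cyclic AMP response elements), CACGTG (E-box) and TTATGTAA (D-box).
G6pc, chr11:101367466-101367715, plus strand: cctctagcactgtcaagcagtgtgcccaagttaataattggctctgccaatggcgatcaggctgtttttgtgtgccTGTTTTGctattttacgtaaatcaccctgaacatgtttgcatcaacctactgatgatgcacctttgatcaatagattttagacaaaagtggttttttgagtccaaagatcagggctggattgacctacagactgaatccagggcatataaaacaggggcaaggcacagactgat
Irs2, chr8:11008930-11009179, minus strand: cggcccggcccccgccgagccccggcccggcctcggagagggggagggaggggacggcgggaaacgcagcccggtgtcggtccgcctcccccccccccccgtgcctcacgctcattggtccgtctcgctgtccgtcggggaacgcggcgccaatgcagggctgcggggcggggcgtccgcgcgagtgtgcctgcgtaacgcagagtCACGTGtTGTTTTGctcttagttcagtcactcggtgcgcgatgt
Igfbp1, chr11:7197537-7197786, plus strand: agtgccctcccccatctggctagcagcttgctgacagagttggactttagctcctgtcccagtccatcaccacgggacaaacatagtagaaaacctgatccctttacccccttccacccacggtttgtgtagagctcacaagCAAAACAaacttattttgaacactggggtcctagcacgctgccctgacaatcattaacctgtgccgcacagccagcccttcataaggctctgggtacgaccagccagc
Pck1, chr2:173152823-173153072, plus strand: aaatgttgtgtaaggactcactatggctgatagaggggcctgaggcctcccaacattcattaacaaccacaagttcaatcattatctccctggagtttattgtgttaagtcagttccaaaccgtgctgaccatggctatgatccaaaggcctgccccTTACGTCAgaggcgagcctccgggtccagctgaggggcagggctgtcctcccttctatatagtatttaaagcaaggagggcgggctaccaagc
CAAAACA lay 174 to 168 bases upstream of the start in G6pc (reverse strand), 37 to 31 in Irs2 (reverse strand) and 108 to 102 in Igfbp1 (forward strand). Irs2 also held CACGTG at 44 to 39 bases upstream, which does not overlap its CAAAACA. Pck1 held TTACGTCA at 93 to 86 bases upstream and no CAAAACA in this window. Of the other members, Igfbp2 held CACGTG at 142 to 137 bases upstream of the first of its 2 starts, and the window of Pygl held 0 of the 6 motifs. Among 32851 mouse promoters cut to the same length, 5.56% held CAAAACA, 6.02% CACGTG, 3.17% GTAAACA, 1.55% TGACGTCA, 0.819% TTATGTAA and 0.447% TTACGTCA. These are matches of letters and were not tested as binding sites. The motifs were chosen with earlier results of these data known, and whether they bear on the differences was not tested.

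The 40 arrays had 0 missing values, and medians over all probes lay between -0.04 and 0.04 log2 units. Signal over background was unknown, so the number of arrays limits the precision. Some pairs of arrays correlated negatively over all probes (lowest r -0.47), and the direction of the ratio was kept because the labels state the dyes and because the Y-linked gene Eif2s3y lay at or below -3.82 in every female and at or above 0.35 in every male. Of 29 values that sit at the limits of the deposited scale, 0 belonged to a member. Ratios to a pool of the same tissue cannot show whether hepatocyte markers are present, only whether they shift between groups.

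Of the 6 genes, 5 differed among the 8 groups, while Pck1 did not pass. In the moderated F test of limma over the 8 group means the adjusted p was 3.97e-07 for Irs2, 6.63e-06 for G6pc, 9.30e-05 for Igfbp1, 0.00979 for Pygl, 0.0342 for Igfbp2 and 0.501 for Pck1, against 17.2% of all probes past an adjusted p of 0.05. Group membership accounted for 75.9% of the variance of Irs2, 70.5% of G6pc, 64.2% of Igfbp1, 49.9% of Pygl, 41.8% of Igfbp2 and 20.5% of Pck1, against a median of 24.5% over all probes. The second probe of Irs2 also passed (adjusted p = 0.00159, share 55.8%). In these bulk livers a lower ratio can mean fewer cells that express a gene or less RNA per cell, which cannot be told apart.

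**Figure D1:**
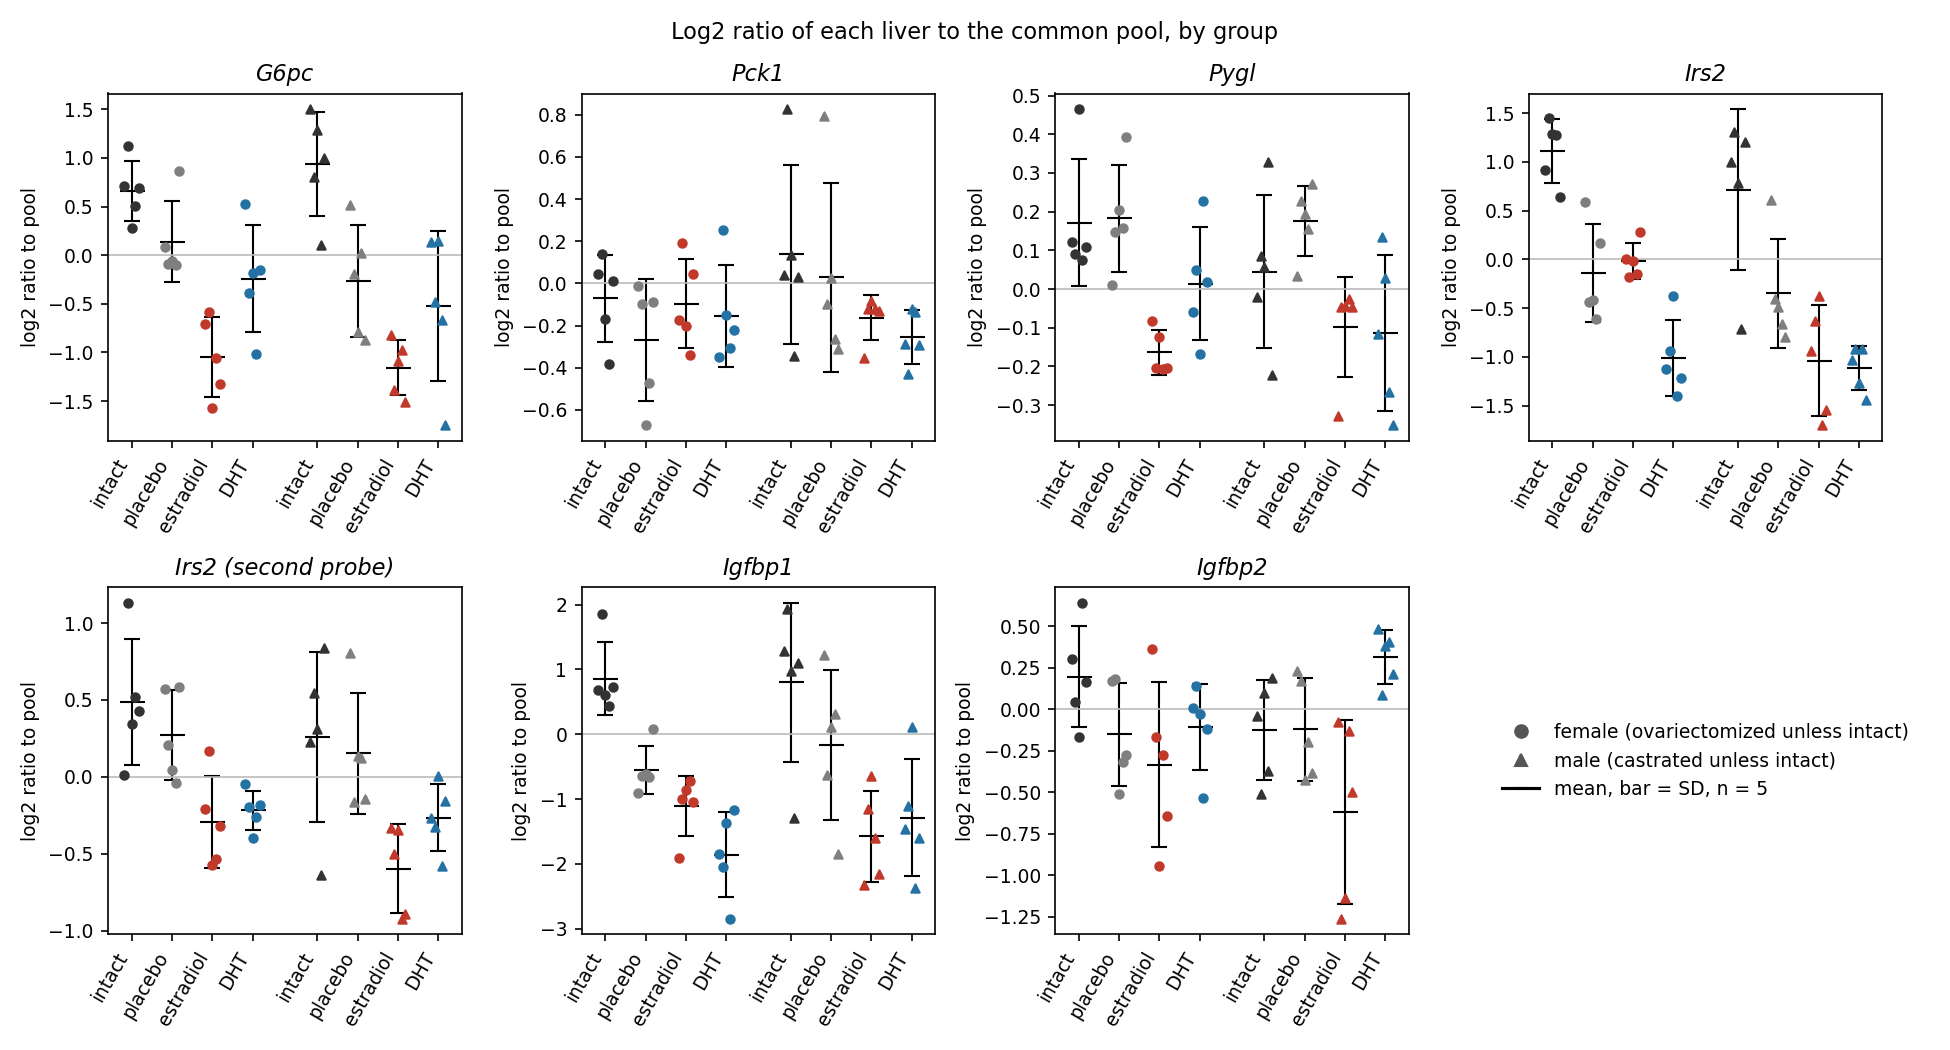
Log2 ratio to the common pool for each of the 7 probes (y axis, log2 units) in the 8 groups (x axis). Each point is 1 liver, circles are females and triangles males, and the cross bar and error bar give the mean and SD of 5 animals. Intact livers stand highest for Irs2 and Igfbp1, both estradiol groups stand lowest for G6pc, and the Pck1 groups all overlap.

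Gonadectomy with placebo was followed by lower G6pc, Irs2 and Igfbp1. Averaged over both sexes (10 animals against 10, a contrast added after the values were seen), Irs2 was 2.24-fold lower (log2 difference -1.16 ± 0.21 SE, limma adjusted p = 0.000317), Igfbp1 2.27-fold lower (-1.19 ± 0.35, 0.0320) and G6pc 1.82-fold lower (-0.86 ± 0.22, 0.0107). The second probe of Irs2 gave -0.16 (adjusted p = 0.627). That is 3 of 6 members called, against 5.98% of all probes, and the median difference of the 6 members was -0.52 against 0.01 over all probes. After quantile normalization between arrays G6pc (-0.67, 0.139) and Igfbp1 (-1.09, 0.0934) no longer passed. Igfbp1 lost its call when animal 2, 8, 9, 10, 12, 16, 17, 19, 25 or 28 was left out (-1.45 to -0.97 over all 20 such fits). Of the cell markers, Tdo2 (hepatocyte, 1 of 7, -0.39), Cdh1 (periportal, 1 of 3, -0.68), Alas2 (erythroid, 1 of 4, -0.61) and Lep (adipocyte, 1 of 2, -0.19) were also lower, and their part in the result was not tested.

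Taken by sex, G6pc (-1.20 ± 0.30, limma adjusted p = 0.00662) and Irs2 (-1.07 ± 0.30, 0.0135) were lower in castrated males on placebo than in intact males, 2 of 6 members against 12.1% of all probes. The exact permutation test over the 10 males gave p = 0.0556 for Irs2, and its second probe differed by -0.11 (limma adjusted p = 0.777). Both calls were lost after quantile normalization (G6pc -0.87, Irs2 -0.79). In ovariectomized females on placebo against intact females 0 of 6 passed with limma, against 0.0339% of all probes, although Irs2 (-1.26 ± 0.30, adjusted p = 0.157) and Igfbp1 (-1.41 ± 0.49, adjusted p = 0.591) had an unadjusted p under 0.05. For these 2 genes the 5 intact and 5 ovariectomized females did not overlap, a separation seen for 1.11% of all probes, with an exact permutation p of 0.00794, the smallest that 5 against 5 can give. The difference between the sexes in the response to gonadectomy passed for 0 of 6 members with limma and for 4.4% of all probes; at an unadjusted p under 0.05 it was also 0 of 6.

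Estradiol was followed by lower G6pc and Pygl. As the mean of both sexes (10 against 10, added after the values were seen), G6pc was 2.06-fold lower than with placebo (-1.04 ± 0.22, limma adjusted p = 0.00297) and Pygl 1.24-fold lower (-0.31 ± 0.07, adjusted p = 0.00368). These were 2 of 6 members, against 4.83% of all probes. Igfbp1 stood at -0.99 ± 0.35 (0.0917) and Irs2, which is taken up below, did not pass. With 5 against 5, 0 of 6 passed with limma in ovariectomized females (0.632% of all probes; 2 of 6 at an unadjusted p under 0.05, 3 by the exact permutation test) and 0 of 6 in castrated males (1.18%; 5 of 6 unadjusted, 3 exact). The shares of all probes called are at an adjusted p under 0.05. Counts by unadjusted or exact p, here and below, have no such share beside them. The difference between the sexes in the response passed for 0 of 6 members and 0 of all 23574 probes with limma, and 0 of 6 had an unadjusted p under 0.05. Markers of Kupffer cells and other macrophages moved with estradiol: 4 of 7 were higher than with placebo (median 0.66, mean of both sexes). Cdh1 (periportal, 1 of 3) was higher at 0.75, and Tek (endothelial, 1 of 5, -0.19) and Krt19 (cholangiocyte, 1 of 2, -0.14) were lower; their part in the result was not tested.

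DHT was followed by lower Irs2, Igfbp1 and Pygl. As the mean of both sexes (added after the values were seen), Igfbp1 was 2.32-fold lower than with placebo (-1.22 ± 0.35, limma adjusted p = 0.0295), Irs2 1.76-fold lower (-0.82 ± 0.21, 0.0132) and Pygl 1.17-fold lower (-0.23 ± 0.07, 0.0303). These were 3 of 6 members, against 5.28% of all probes. The second probe of Irs2 gave -0.45 (0.0671). With 5 against 5, 0 of 6 passed with limma in ovariectomized females (1.15% of all probes; 2 of 6 unadjusted, 2 by the exact permutation test) and 0 of 6 in castrated males (3.47%; 3 of 6 unadjusted, 3 exact). The difference between the sexes passed for 0 of 6 members and 0 of all probes with limma, and for 0 of 6 at an unadjusted p under 0.05. Without 1 animal each, Igfbp1 (-1.43 to -1.04) lost its call without 20, 24, 26, 27, 53, 59 or 62 and Pygl (-0.26 to -0.20) without 20, 25, 28, 50, 52, 59, 62 or 63. Of the cell markers Alas2 (erythroid, 1 of 4) was higher at 1.12, and Tek (endothelial, 1 of 5, -0.17), Krt19 (cholangiocyte, 1 of 2, -0.13) and Cd2 (T cell, 1 of 7 T and B cell markers, -0.36) were lower, and their part was not tested. Both hormones were compared with the same placebo groups, so the estradiol and DHT results are not independent.

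Set directly against DHT, estradiol gave lower G6pc and Igfbp2. As the mean of both sexes (added after the values were seen), Igfbp2 differed by -0.58 ± 0.15 (1.495-fold, limma adjusted p = 0.0180) and G6pc by -0.72 ± 0.22 (1.65-fold, 0.0421), 2 of 6 members against 5.2% of all probes. In castrated males Igfbp2 was 1.91-fold lower with estradiol (-0.93 ± 0.22, 0.0279), 1 of 6 against 0.708%. In ovariectomized females Irs2 was 2.00-fold higher with estradiol (1.00 ± 0.30, 0.0482), 1 of 6 against 3.79%, but its second probe gave -0.08 (0.908) and the call held only without animal 34 or 52 among the 10 fits that leave out 1 animal (0.90 to 1.16). In the mean of both sexes G6pc (-0.87 to -0.62) was lost without 35, 36, 37, 43, 44, 46, 50, 51, 52, 54, 59, 60, 61 or 62, and Igfbp2 (-0.67 to -0.50) without 35, 43 or 44. Of 7 macrophage markers 6, all but Cd68, were also higher with estradiol than with DHT as the mean of both sexes (median 0.81). The mean of the 7 markers ran from -0.30 to 1.74 in ovariectomized females with estradiol and from -0.90 to -0.32 with DHT, and from -0.49 to 0.86 and from -0.65 to -0.24 in castrated males. Whether they bear on the 2 genes was not tested.

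Hormone-treated livers were also set against intact livers of the same sex, which serve as the shared reference of these comparisons and of gonadectomy. Castrated males with DHT were lower than intact males in Irs2 (-1.83 ± 0.30, limma adjusted p = 0.000155), G6pc (-1.46 ± 0.30, 0.00232) and Igfbp1 (-2.08 ± 0.49, 0.00662), 3 of 6 against 6.32% of all probes. G6pc and Igfbp1 were lost after quantile normalization (0.0788 and 0.0919) and when the other groups were left out of the fit (0.0839 and 0.111), and the second Irs2 probe gave -0.52 (0.131). Ovariectomized females with estradiol were lower than intact females in G6pc (-1.71 ± 0.30, 0.00239), Igfbp1 (-1.97 ± 0.49, 0.0295), Irs2 (-1.13 ± 0.30, 0.0378) and Pygl (-0.34 ± 0.09, 0.0493), 4 of 6 against 1.89%. For these 4 genes the 5 treated and 5 intact females did not overlap, as for 2.13% of all probes. With the hormone of the other sex (added after the values were seen) castrated males with estradiol were lower than intact males in G6pc (-2.10, 7.78e-06), Irs2 (-1.75, 7.63e-05) and Igfbp1 (-2.37, 0.00106), 3 of 6 against 9.9%, and ovariectomized females with DHT were lower than intact females in Irs2 (-2.13, 2.08e-05) and Igfbp1 (-2.72, 0.000707), 2 of 6 against 2.72%, with G6pc at -0.90 (0.111). For ovariectomized females with DHT against intact females the second Irs2 probe gave -0.70 and did not pass with limma. In ovariectomized females with estradiol G6pc passed in all 10 fits without 1 animal each (-1.83 to -1.58). Igfbp1 (-2.07 to -1.72) passed without animal 4 or 34, Pygl (-0.36 to -0.26) without 33 or 34, and Irs2 (-1.25 to -1.04) without 5, 33 or 34, and each was lost in the others. Between intact females and intact males 0 of 6 members passed with limma (8.69% of all probes; 0 of 6 unadjusted, 0 exact), and the same held for ovariectomized females and castrated males on placebo (0.0679%; 0 unadjusted, 0 exact).

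**Figure D2:**
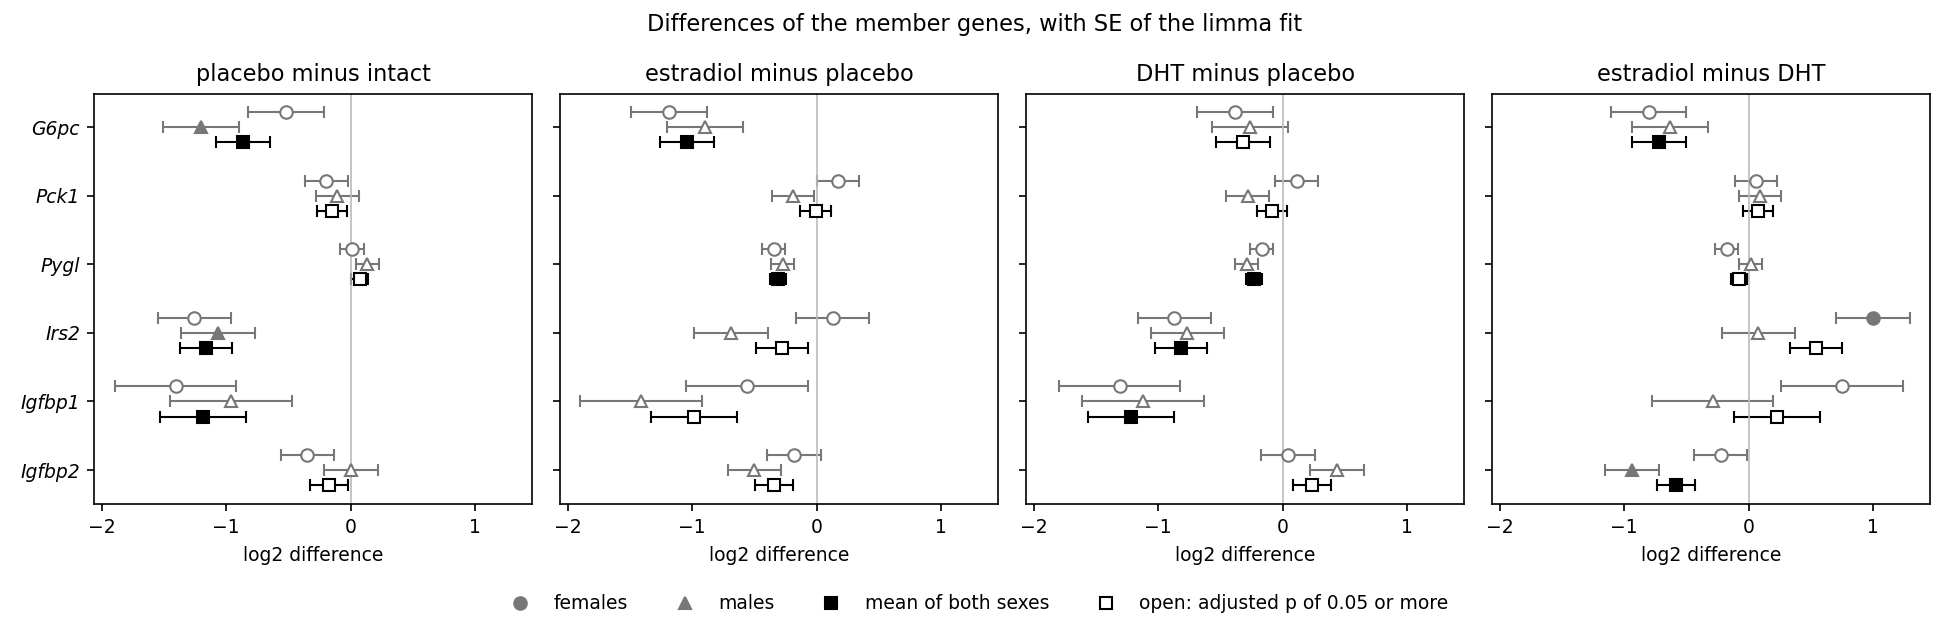
Log2 differences of the 6 genes (rows) in 4 comparisons (panels; x axis, log2 units), with the SE of the limma fit as error bars. Grey circles are females (5 against 5), grey triangles males (5 against 5) and black squares the mean of both sexes; filled symbols have an adjusted p under 0.05. G6pc stands at -1.04 under estradiol and Irs2 at -0.82 under DHT, and Pck1 has 0 filled symbols.

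Among the enzymes, G6pc, the catalytic subunit of glucose-6-phosphatase that frees glucose in the last step of both pathways, had the larger of the 2 called estradiol differences (mean of both sexes, log2). Intact females gave 0.71, 1.12, 0.28, 0.51 and 0.69, and intact males 1.4996, 0.81, 1.29, 0.11 and 1.00. On placebo, ovariectomized females gave 0.09, -0.09, -0.06, -0.10 and 0.87 and castrated males 0.51, -0.19, -0.79, 0.02 and -0.87. With estradiol the values were -0.70, -0.58, -1.57, -1.06 and -1.32 in ovariectomized females and -0.82, -1.38, -1.09, -0.97 and -1.51 in castrated males. In females the estradiol livers lay below all 5 intact livers (2.13% of all probes did not overlap there) and all 5 placebo livers (1.87%; -1.19 ± 0.30, limma adjusted p = 0.0575), while in males 1 placebo liver (-0.87) lay among them. With DHT ovariectomized females gave 0.52, -0.39, -0.19, -1.01 and -0.15 and castrated males 0.13, -0.48, 0.15, -0.66 and -1.75, which overlap the placebo groups. The order of the means was intact males 0.94, intact females 0.66, ovariectomized placebo 0.14, ovariectomized DHT -0.24, castrated placebo -0.26, castrated DHT -0.52, ovariectomized estradiol -1.05 and castrated estradiol -1.16, and each group overlapped its neighbour in this order.

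Pck1, the cytosolic phosphoenolpyruvate carboxykinase that commits carbon to gluconeogenesis, showed 0 calls with limma in the 15 planned and 6 added comparisons (smallest adjusted p 0.173). Without animal 11, an intact male, castrated males with DHT were lower than intact males (-0.51, adjusted p = 0.0495). Its group means lay between 0.14 in intact males and -0.27 in ovariectomized females on placebo, and the SD within a group ran from 0.11 to 0.45. The highest livers were animal 9 (intact male, 0.83) and animal 24 (castrated male on placebo, 0.79), and the lowest was animal 18 (ovariectomized female on placebo, -0.67). Pck1 thus had a within-group spread (residual SD 0.28) above the median of 0.15 over all probes, with no group set apart.

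Pygl, the liver glycogen phosphorylase that starts glycogen breakdown, moved by little. Its within-group spread (residual SD 0.148) was near the median of 0.146 over all probes. Ovariectomized females gave 0.01, 0.15, 0.20, 0.16 and 0.39 on placebo and -0.08, -0.20, -0.12, -0.21 and -0.20 with estradiol. Castrated males gave 0.03, 0.23, 0.19, 0.16 and 0.27 on placebo and -0.33, -0.05, -0.04, -0.02 and -0.05 with estradiol. In both sexes the estradiol and placebo livers did not overlap, as for 1.87% of all probes in females and 2.87% in males. Neither difference passed the adjustment alone (females -0.35 ± 0.09, limma adjusted p = 0.0689; males -0.27 ± 0.09, 0.157), and together they did. With DHT ovariectomized females gave -0.06, 0.05, -0.17, 0.23 and 0.02, and castrated males -0.12, 0.13, 0.03, -0.27 and -0.35, both overlapping placebo. The means of Pygl were 0.18 on placebo in either sex, 0.17 in intact females and 0.05 in intact males.

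Irs2, the adaptor that couples the insulin receptor to phosphoinositide 3-kinase, was highest in intact livers and low with DHT in both sexes. Intact females gave 0.92, 1.45, 1.28, 1.28 and 0.64, and intact males 1.00, 1.31, 0.79, -0.71 and 1.21. On placebo, ovariectomized females gave 0.59, -0.44, -0.41, -0.61 and 0.17 and castrated males 0.61, -0.40, -0.49, -0.66 and -0.80. One intact male, animal 11, lay at -0.71, inside the placebo range, and without it castration gave a difference of -1.42. Ovariectomized females gave -1.12, -0.94, -0.38, -1.40 and -1.22 with DHT, and castrated males -1.03, -0.92, -1.26, -0.92 and -1.44. All 5 castrated males with DHT lay below all 5 on placebo (-0.77 ± 0.30, limma adjusted p = 0.162; 4.06% of all probes did not overlap there). With estradiol ovariectomized females gave 0.00, -0.18, -0.02, -0.15 and 0.28 and castrated males -0.94, -0.63, -0.38, -1.70 and -1.54. The test of that difference in response did not pass (0.82 ± 0.42, unadjusted p = 0.0583, adjusted p = 0.993 in limma).

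The second probe of Irs2 gave a smaller range and another order. Its means were 0.49 in intact females, 0.27 in ovariectomized females on placebo, 0.26 in intact males, 0.15 in castrated males on placebo, -0.22 and -0.27 with DHT in ovariectomized females and castrated males, and -0.29 and -0.60 with estradiol. Under estradiol it was lower than with placebo as the mean of both sexes (-0.66, limma adjusted p = 0.00606), where the first probe did not pass, and it showed no difference for gonadectomy (-0.16, adjusted p = 0.627). In castrated males with estradiol it gave -0.33, -0.50, -0.34, -0.92 and -0.89, below all 5 placebo males (0.80, -0.17, 0.14, 0.12 and -0.14), as 2.87% of all probes did not overlap there. The probes correlated within groups (r = 0.68, rho = 0.57, permutation p = 0.00032 and 0.0011; r = 0.50 without animals 11 and 24). Of the differences called with the first probe, 2 were also called with the second, 5 were not, and 1 turned its sign. Which of them reports the Irs2 transcript was not tested. A statement on Irs2 after gonadectomy, under DHT or under estradiol depends on the probe.

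Igfbp1, the binding protein that fasting liver secretes and insulin switches off, had the widest range of the 6 genes. Intact females gave 0.68, 1.85, 0.61, 0.44 and 0.72, and intact males 1.29, 1.93, 0.97, -1.30 and 1.10. On placebo, ovariectomized females gave -0.91, -0.64, -0.61, -0.66 and 0.08, and castrated males 1.23, -0.62, 0.11, 0.32 and -1.85. Castrated males on placebo spread from -1.85 to 1.23, and animal 11, low in Irs2, was also the low intact male here. With DHT ovariectomized females gave -1.85, -2.05, -1.37, -2.85 and -1.17, all below the 5 placebo females (-1.31 ± 0.49, limma adjusted p = 0.239; 4.5% of all probes did not overlap there), and castrated males gave -1.47, -1.10, 0.12, -2.37 and -1.60. With estradiol ovariectomized females gave -1.91, -0.998, -0.87, -0.73 and -1.04, and castrated males -2.32, -1.15, -0.64, -1.60 and -2.16. The means ran from 0.86 and 0.80 in intact females and males through -0.16 (castrated placebo), -0.55 (ovariectomized placebo), -1.11 (ovariectomized estradiol), -1.29 (castrated DHT) and -1.57 (castrated estradiol) to -1.86 (ovariectomized DHT), each group overlapping its neighbour.

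Igfbp2, the other binding protein, which circulates in inverse relation to insulin and obesity, differed between the hormones in castrated males and as the mean of both sexes. Castrated males gave 0.49, 0.09, 0.38, 0.41 and 0.21 with DHT and -0.08, -1.26, -1.14, -0.13 and -0.50 with estradiol, which did not overlap (as for 1.45% of all probes). On placebo they gave 0.23, 0.17, -0.43, -0.19 and -0.39, between the hormones and overlapping both. Ovariectomized females gave 0.01, 0.14, -0.03, -0.54 and -0.12 with DHT and 0.37, -0.17, -0.94, -0.28 and -0.64 with estradiol, which overlapped. Their difference had the same sign and did not pass (-0.23, limma adjusted p = 0.705). Whether the sexes differ in estradiol against DHT was not tested. The call in males was lost when animal 43, 44, 59 or 62 was left out, and over all 10 such fits the difference ran from -1.07 to -0.77 (limma adjusted p up to 0.141). It was also lost when only these groups entered the fit (adjusted p = 0.259).

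Beyond the members, 8 lists of related genes were described, with counts over genes whose probe passed an adjusted p of 0.05 in limma. Of 19 measured genes of gluconeogenesis, glycogen and glycolysis, 2 were higher after gonadectomy with placebo (mean of both sexes) and 0 lower, against 5.98% of all probes called: Slc2a2, the glucose transporter GLUT2 (0.48, adjusted p = 0.0184), and Gckr, the glucokinase regulatory protein (0.31, 0.00612). Under estradiol, where 4.83% of all probes were called, 1 of 19 was higher, Pfkfb3, a kinase that makes the glycolytic activator fructose 2,6-bisphosphate (0.69, 0.00444), and under DHT (5.28%) Pfkfb3 was higher (0.65, 0.00503) and Gckr lower (-0.28, 0.0186). Gys2, the liver glycogen synthase, was lower with estradiol than with DHT (-0.75, 0.00226), where 5.2% of all probes were called. The medians of the list lay between -0.04 and 0.07 in these 4 comparisons, against -0.02 to 0.01 over all probes.

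Measured genes of insulin and glucagon signalling numbered 26, among them Insr, Akt1, Akt2, Foxo1 and Gcgr. With limma 0 of 26 passed after gonadectomy, 0 under estradiol and 0 under DHT (means of both sexes). The shares of all probes called were 5.98%, 4.83% and 5.28%, and 0 of 26 is near these. At an unadjusted p under 0.05 the counts were 4, 6 and 2, and the share of all probes at that p is not given here. With estradiol against DHT, where 5.2% of all probes were called, 2 genes of the list are named. Sik1, a kinase induced by cyclic AMP that restrains gluconeogenic transcription, was lower (-0.86, limma adjusted p = 0.00142). Foxa2, a forkhead factor of the liver, was higher (0.38, 0.0212). Of 15 genes of the IGF and growth hormone system, 3 were higher and 1 lower under estradiol (4.83% of all probes called). Among the higher were Socs2, the growth hormone-induced inhibitor of cytokine signalling (1.08, 0.0221, with 0.90 and 0.94 for its other probes), and Pappa, a protease of IGF binding proteins (0.34, 0.00112). The lower gene is not named here. With DHT (5.28% of all probes called) Igfbp5 (0.26, 0.00337) and Mug1, a protease inhibitor, (0.61, 0.00664) were higher.

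Of 16 measured genes of fatty acid synthesis, listed as raised by insulin, 7 were higher and 1 lower after gonadectomy with placebo, against 5.98% of all probes called, with a median of 0.29 against 0.01 over all probes. Fasn, fatty acid synthase (0.68, limma adjusted p = 0.00327), Thrsp (0.78, 0.0262), Srebf1, the master factor of lipogenesis (0.58, 0.0297), and Pnpla3 (0.25, 0.00189) rose. Insig2 fell (-0.84, 0.00679); it is counted in this list although insulin is known to lower its liver transcript, so the counts and medians mix both kinds. Acaca passed by 1 of its 3 probes (0.45, against 0.18 and 0.14). Under estradiol 8 of 16 were lower and 0 higher (4.83% of all probes called, median -0.25 against -0.02), among them Fads1 (-0.55, 0.000720), Elovl6 (-0.70, 0.00260), Me1 (-0.42, 0.00733) and Scd1 (-0.77, 0.00889), and under DHT 4 of 16 were lower and 0 higher (5.28% of all probes called, median -0.13 against -0.01).

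The next lists are given beside the shares of all probes called, 5.98% after gonadectomy, 4.83% under estradiol and 5.28% under DHT. Of 13 genes that fasting raises, 2 were lower after gonadectomy, Pdk4, the kinase that spares pyruvate (-0.78, limma adjusted p = 0.00514), and Angptl4, an inhibitor of lipoprotein lipase (-0.63, 0.000280). Pdk4 was lower again under estradiol (-0.80, 0.00608) and DHT (-0.89, 0.00140), while under estradiol Acot1 (-0.82, 0.00602) and Ppara (-0.38, 0.0475) fell and Lpin1 rose (0.87, 0.0338). Of 8 glucocorticoid-responsive genes, Serpina6, the corticosteroid-binding globulin, was higher after gonadectomy (1.71, 1.45e-06) and lower under estradiol (2.01-fold, 0.00262) and DHT (-0.79, 0.0146), Sgk1 was lower after gonadectomy (-0.48, 0.0368), and Fkbp5 was higher under estradiol (0.94, 0.000499). Directions of the genes named in these lists were the same after quantile normalization and after centring each array on its median.

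Some of the members varied together among animals of the same group, and 1 pair ran opposite. Over deviations from the group means of 40 livers, 7 of 15 pairs passed after Benjamini-Hochberg adjustment of the permutation p over the 15 pairs. Irs2 and Igfbp1 had r = 0.59 (rho = 0.44, adjusted p = 0.0129, positive in 6 of 8 groups; 0.37 without animals 11 and 24). Pck1, flat across groups, went with Irs2 (r = 0.56, rho = 0.40, 0.0129, 6 of 8; 0.42 without animals 24 and 9) and with Igfbp1 (r = 0.53, rho = 0.36, 0.0235, 7 of 8; 0.39). G6pc went with Igfbp1 (r = 0.53, rho = 0.48, 0.0129, 6 of 8; 0.48 without animals 63 and 11), with Igfbp2 (r = 0.46, rho = 0.49, 0.0129, 7 of 8; 0.47) and with Irs2 (r = 0.41, rho = 0.35, 0.0300, 7 of 8), the last resting on animals 63 and 11, without which r was 0.28. Pygl and Igfbp2 ran opposite (r = -0.43, rho = -0.43, 0.0129, positive in 1 of 8; -0.38 without animals 3 and 11). By Spearman's rho 4 of these 7 passed, all but G6pc with Irs2 and both pairs of Pck1. The members of a pair were read from the same array and RNA, so that the quality of a sample is shared. How many pairs among all genes would pass the same test was not counted.

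**Figure D3:**
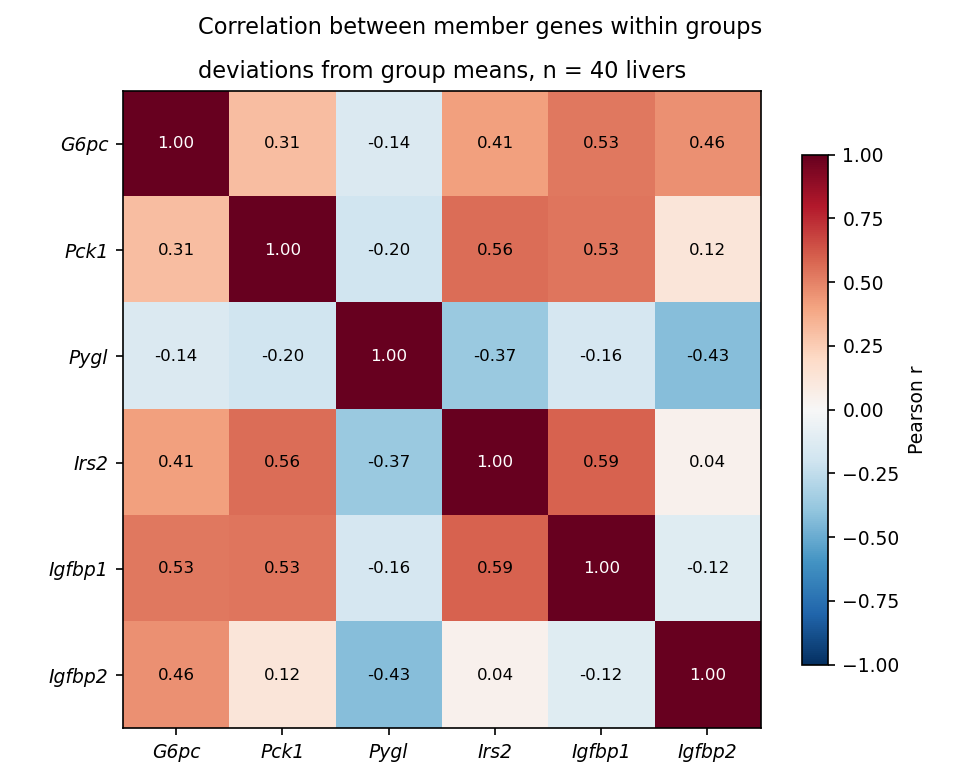
Pearson correlations between the 6 genes over deviations of 40 livers from their group means (colour scale from -1 to 1, both axes list the genes). Irs2, Igfbp1 and Pck1 form a block with r of 0.53 to 0.59, and Pygl is negative against every other member.

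Some clock genes, named below, passed with limma after gonadectomy (5.98% of all probes called) and under DHT (5.28%) as the mean of both sexes. Under estradiol (4.83%) 0 of 8 and 0 of 5 genes of the clock arms passed, which is near that share for so few genes. At an unadjusted p under 0.05 the estradiol counts were 1 and 2, again without the share of all probes at that p. The index used here is the mean log2 ratio of 8 genes of the Nr1d1, Per and Dbp arm minus that of 5 genes of the Arntl arm, and it was added to the correlations after the values were seen. It averaged -0.71 in intact females (range -0.86 to -0.57) and -0.47 in intact males (-0.63 to -0.25), against means of -0.01 to 0.45 in the 6 gonadectomized groups. Between estradiol and placebo the index gave an exact permutation p of 0.571 in females and 0.214 in males, and between DHT and placebo 0.0159 and 0.0238. After gonadectomy with placebo (mean of both sexes) Nr1d1 (0.83, limma adjusted p = 0.000505) and Per2 (0.79, 0.0165) were higher and Arntl (-0.85, 0.00341) and Nfil3 (-0.59, 0.00572) lower, and under DHT Per2 rose (1.05, 0.00120) while Nr1d1 (-0.60, 0.0148) and Arntl (-1.15, 8.69e-05) fell.

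Within groups the clock index went with Irs2 (r = -0.60, rho = -0.61, permutation p = 0.00025, adjusted over 6 genes 0.00075) and with Igfbp1 (r = -0.58, rho = -0.52, 0.00025, 0.00075), each negative in 7 of 8 groups. Without animals 24 and 28, the farthest from the median, r was -0.52 and -0.44. For G6pc (r = -0.33, adjusted p = 0.0900), Pck1 (-0.33, 0.146), Pygl (0.12, 0.510) and Igfbp2 (0.13, 0.510) it did not pass. How many of all genes go with the index within groups was not counted. With the index as a covariate in limma, gonadectomy with placebo (mean of both sexes) gave -0.33 for Irs2 (adjusted p = 0.784), 0.14 for Igfbp1 (0.960) and -0.39 for G6pc (0.799), and DHT gave -0.29 for Irs2 (0.626), while the estradiol differences of G6pc and Pygl still passed. All intact females lay below all ovariectomized females in the index, so in females the gonads and the index cannot be told apart. Intact males also lay below all castrated males with estradiol (mean 0.26) and with DHT (0.43). In those comparisons treatment and the index cannot be told apart either. Castrated males on placebo overlapped intact males in the index. The labels name no hour of dissection.

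**Figure D4:**
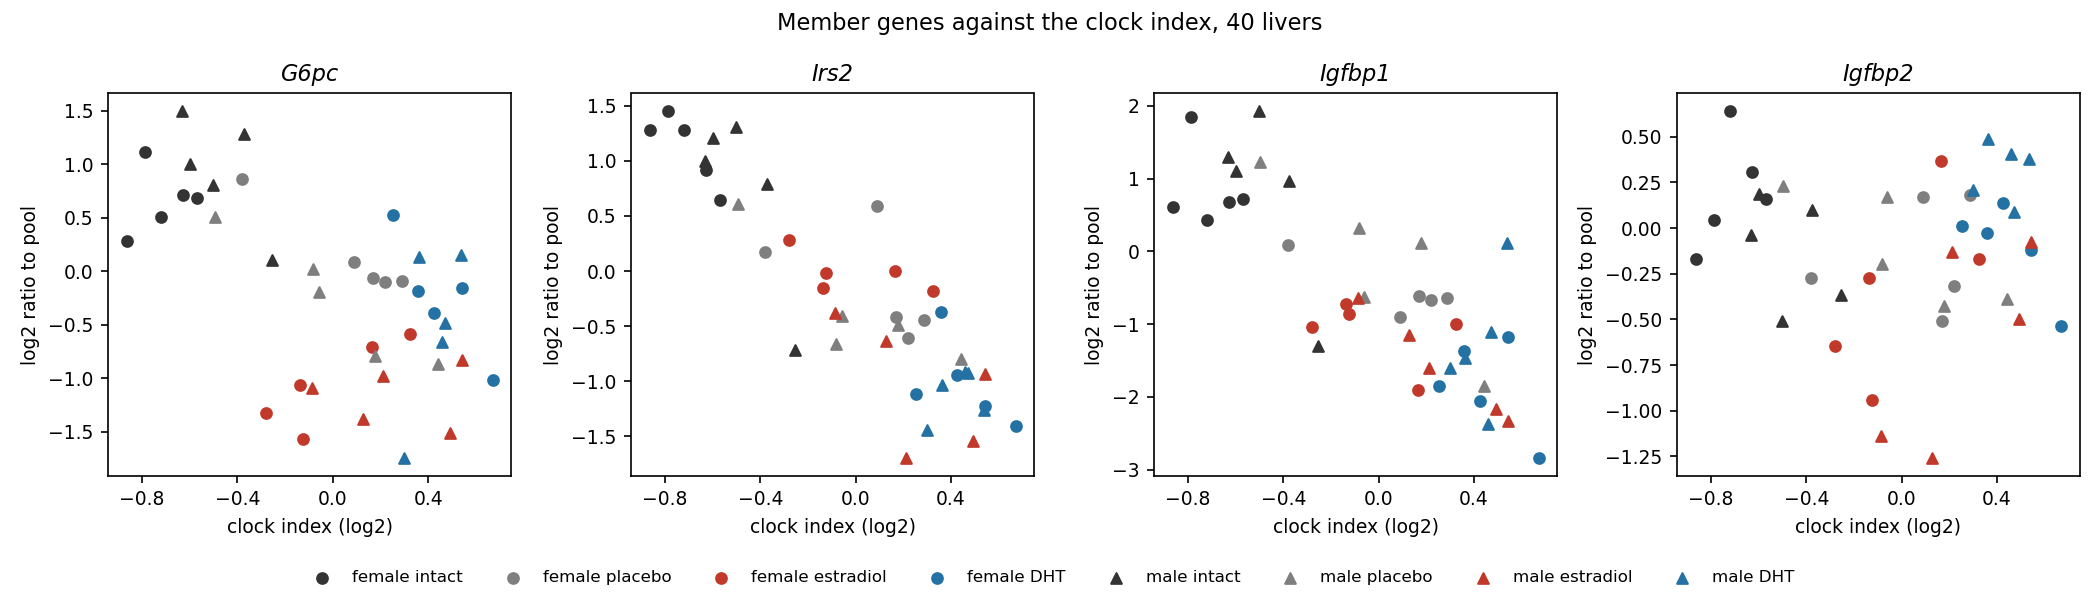
Log2 ratio to the pool of G6pc, Irs2, Igfbp1 and Igfbp2 (y axes) against the clock index (x axes, log2 units) in 40 livers, with colours for treatment, circles for females and triangles for males. Irs2 and Igfbp1 descend along the index, from intact livers at the upper left to DHT livers at the lower right, with intact male 11 below the other intact livers, and for G6pc the estradiol livers all lie at -0.58 or below.

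The named genes closest to each member were found by Pearson's r over deviations from the group means, 40 livers and 10842 genes. For Pck1 they were Tat (0.83), Mat1a (0.80) and Olfr33 (0.77), and for Igfbp2 Sdc1 (0.84), Dgat1 (0.83) and Oplah (0.80). Igfbp1 had Gadd45g (0.71), Fst (0.70) and Ruvbl1 (0.68), and Irs2 had Cct3 (0.76), Fst (0.72) and Cldn1 (0.72). G6pc had Ankrd33b (0.71), Kctd15 (0.71) and Cldn1 (0.69), and Pygl Tkfc (0.69), Acly (0.64) and Myom2 (0.64). Over the 8 group means Igfbp1 was closest to Gadd45g (0.98), H1f2 (0.98) and Nfil3 (0.98), G6pc to Chd6 (0.97), Ric1 (0.96) and Dnmbp (0.96), and Irs2 to Pprc1 (0.98), Mitf (0.97) and Hilpda (0.97). Gadd45g came first for Igfbp1 by both measures. These are the highest of 10842 values each and are given as a description.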

How the data were processed

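RNA of 40 livers was measured on 2-colour arrays, 1 per animal, with Cy5 for the liver and Cy3 for a pool made of equal parts of each sample's RNA, per the labels. The authors deposited log10 ratios for 23574 probes. Background correction, normalization and centring are not given in the sources used here, and no genome build came with the probe annotation. Values were multiplied by 3.32 to give log2 ratios. Read as log10, the Y-linked gene Eif2s3y averaged 1.94-fold over the pool in males, against 1.22-fold read as log2.

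Probes were named by the platform annotation where their gene identifier is in the mouse RefSeq table, which left 12662 named probes. For a gene with several probes the one with the largest SD stood for it. Linear models with a mean for each of the 8 groups used every array (limma 3.58.1 in R 4.3.3, lmFit and eBayes, 32 residual and 3.42 prior degrees of freedom). All p are two-sided and Benjamini-Hochberg adjusted over all probes of a comparison, with a call under 0.05. There were 15 planned contrasts and 6 added after the values were seen. The exact permutation test used all 252 splits of 5 against 5, and correlations used 100000 resamples within groups. The method was tested on simulated data.

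The members, the lists and the motifs were chosen with earlier results of these data known. Named are all member probes, up to 4 called genes of a list per comparison with the smallest adjusted p, and the 3 genes most like each member. Thrsp, Srebf1, Scd1 and the markers lie outside this rule and were chosen after their values were seen. Labels name no batch, slide or date, so none was tested. RefSeq promoters are of GRCm38.p6.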

Additional observations from a re-analysis of the deposited data

Results flagged for a closer look

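In 8 cases a single liver stood apart from the other 4 of its group by Dixon's ratio. The ratio was taken for each of 7 probes in each of 8 groups, and chance gives about 1 case in 20 of these sets. All values are log2 ratios to the pool. Intact male animal 11 lay at -0.71 for Irs2, below the other 4 intact males, and castrated male 24 on placebo lay at 0.61, above the other 4. Intact female 2 lay at 1.85 for Igfbp1 and ovariectomized female 33 with estradiol at -1.91. Ovariectomized female 20 on placebo lay at 0.87 for G6pc. Castrated male 41 with estradiol was low for both Pck1 (-0.35) and Pygl (-0.33), and intact female 3 was high for Pygl (0.46). The clock index of animal 11 was -0.25, the highest of the intact livers, and that of animal 24 was -0.50, the lowest of the gonadectomized livers. Their part in the values of Irs2 was not tested.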

How the results depend on the processing

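Alternatives were followed for differences with an unadjusted p under 0.05. Precision is limited by 5 animals a group, and signal over background is unknown. No paired analysis was possible because the groups share no animal numbers. Values are log2 differences, counts are members called of 6, and the cause of each change was not tested.

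After quantile normalization castration gave -0.87 for G6pc and -0.79 for Irs2 (0 called). Estradiol against placebo in ovariectomized females gave 1 called, and against intact females Pygl -0.33. Castrated DHT against intact males gave G6pc -1.17 and Igfbp1 -1.68 (1 called), and gonadectomy over both sexes G6pc -0.67 and Igfbp1 -1.09 (1 called). Median centring gave Pygl -0.32 in ovariectomized estradiol against intact females.

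With the clock index as a covariate, castration gave G6pc -0.85 and Irs2 -0.45 (0 called), and ovariectomy turned Igfbp1 to 0.26. Estradiol against placebo in ovariectomized females gave 1 called, and estradiol against DHT there Irs2 0.39 (0 called). Against intact females, estradiol gave G6pc -1.18, Pygl -0.39, Irs2 -0.20 and Igfbp1 -0.48 (0 called), and DHT Irs2 -0.59 and Igfbp1 -0.26 (0 called). Against intact males, DHT gave G6pc -0.79, Irs2 -0.65 and Igfbp1 -0.19 (0 called), and estradiol Irs2 -0.79 and Igfbp1 -0.84 (1 called). Within each sex, the index did not overlap between intact livers and hormone-treated livers, nor in females between intact livers and ovariectomized livers on placebo. Such fits cannot tell treatment and index apart. Over both sexes gonadectomy gave G6pc -0.39, Irs2 -0.33 and Igfbp1 0.14, a turned sign (0 called), DHT Pygl -0.26, Irs2 -0.29 and Igfbp1 -0.37 (0 called), and estradiol against DHT Igfbp2 -0.52 (1 called).

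With only the compared groups in the fit, values were as reported but calls were lost for castration Irs2 -1.07 (1 called), estradiol against DHT in castrated males Igfbp2 -0.93 (0 called), ovariectomized estradiol against intact females Pygl -0.34, castrated DHT against intact males G6pc -1.46 and Igfbp1 -2.08 (1 called), gonadectomy over both sexes Igfbp1 -1.19, and estradiol against DHT over both sexes G6pc -0.72 and Igfbp2 -0.58 (0 called); DHT in ovariectomized females gave 1 called. The exact permutation test of Irs2 after castration (-1.07) gave p = 0.0556.

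The second probe of Irs2 gave -0.11 for castration, -0.52 for castrated DHT against intact males, -0.70 for ovariectomized DHT against intact females, -0.16 for gonadectomy and -0.45 for DHT over both sexes, and turned the sign for estradiol against DHT in ovariectomized females (-0.076) and over both sexes (-0.20). Array weights raised the count to 2 (estradiol) and 1 (DHT) in ovariectomized females, 1 (estradiol) and 3 (DHT) in castrated males, 2 and 2 for estradiol against DHT, and 4 for estradiol over both sexes. For estradiol in ovariectomized females the more variable probes alone gave 2 and probes with 1 symbol 1. A trended, robust prior left Irs2 at 1.00 for estradiol against DHT in ovariectomized females (0 called). Without 2 animals r of G6pc with Irs2 was 0.28, and without removing group means r of Pygl with Igfbp2 was -0.10.

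Leaving out 1 animal at a time gave counts of 0 to 2 for estradiol and 0 to 1 for estradiol against DHT in ovariectomized females, 0 to 1 for estradiol, for DHT and for estradiol against DHT in castrated males, 1 to 4 for ovariectomized estradiol against intact females, and 1 to 3 for DHT and 0 to 2 for estradiol against DHT over both sexes. Irs2 ran from 0.90 to 1.16 for estradiol against DHT in ovariectomized females, and Igfbp2 from -1.07 to -0.77 in castrated males. In ovariectomized estradiol against intact females the ranges were -0.36 to -0.26 for Pygl, -1.25 to -1.04 for Irs2 and -2.07 to -1.72 for Igfbp1. Over both sexes they were -1.45 to -0.97 for Igfbp1 after gonadectomy, -0.26 to -0.20 for Pygl and -1.43 to -1.04 for Igfbp1 under DHT, and -0.87 to -0.62 for G6pc and -0.67 to -0.50 for Igfbp2 for estradiol against DHT. The other called differences passed in every such fit.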
